A study of Mus musculus with 4 samples.

Results

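The Id and E-protein genes examined here are Id1, Id2, Id3, Id4, Tcf4 and Tcf12. They were chosen by name as members of 2 families of helix-loop-helix regulators, with earlier results of these data known. Of these 6 genes, 5 are among the 6474 genes named in at least 1 of 2 lists of genomic sites bound by the zinc finger transcription factor Sp9, and Id1 is in neither. Sp9-bound chromatin was recovered by chromatin immunoprecipitation and sequencing (ChIP-seq) from dissected basal ganglia of wild-type embryos of the outbred CD1 strain. The group at embryonic day 13.5 (E13.5) had 1 library made with a rabbit antibody to Sp9, and so did the group at embryonic day 16.5 (E16.5). Each stage also had 1 input library made with no antibody, which entered only through the peak calling. The labels name no mutation, transgene or treatment, and do not say whether a library pooled embryos. The study asks about Six3 activation by Sp8 and Sp9 in the production of D2-type medium spiny neurons. The 2 peak lists are called the early (E13.5) and the late (E16.5) list below. For each peak they give the signed distance to a gene's transcription start site (TSS) on the mm9 build, without height, width or chromosome position. Sequencing depth is therefore unknown, the tissue could not be checked against marker genes, and whether a peak lies in an intron or between genes cannot be read.

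E proteins are basic helix-loop-helix (bHLH) transcription factors present in most cell types. They pair with tissue-specific bHLH factors, among them the proneural factors that start neuronal differentiation, and the pair binds DNA at E-boxes. Tcf4 (also called E2-2) and Tcf12 (HEB) encode E proteins, and neither is the Wnt effector Tcf7l2 that older texts also call TCF4. Id proteins have the helix-loop-helix but lack the basic region that touches DNA. They take E proteins into dimers that cannot bind, and are known for holding progenitors back from differentiation.

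Peaks were assigned to 4 of the 6 genes at each stage. The early list gave 17 of its 5847 peaks to Id2, Id4, Tcf4 and Tcf12, and the late list gave 18 of its 6022 peaks to Id3, Id4, Tcf4 and Tcf12. Of all protein-coding genes, 20.7% had an assigned peak in the early list and 23.6% in the late list. Tcf4 alone held 10 of the peaks at each stage, Id4 held 3 and then 5, and Tcf12 held 3 and then 2. Id2 had a single peak in the early list only, Id3 a single peak in the late list only, and Id1 none. Each stage had a single library, which allowed neither a replicate check nor a test between stages, so a peak named at 1 stage only shows on which side of the authors' threshold it fell in each list.

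**Figure D1:**
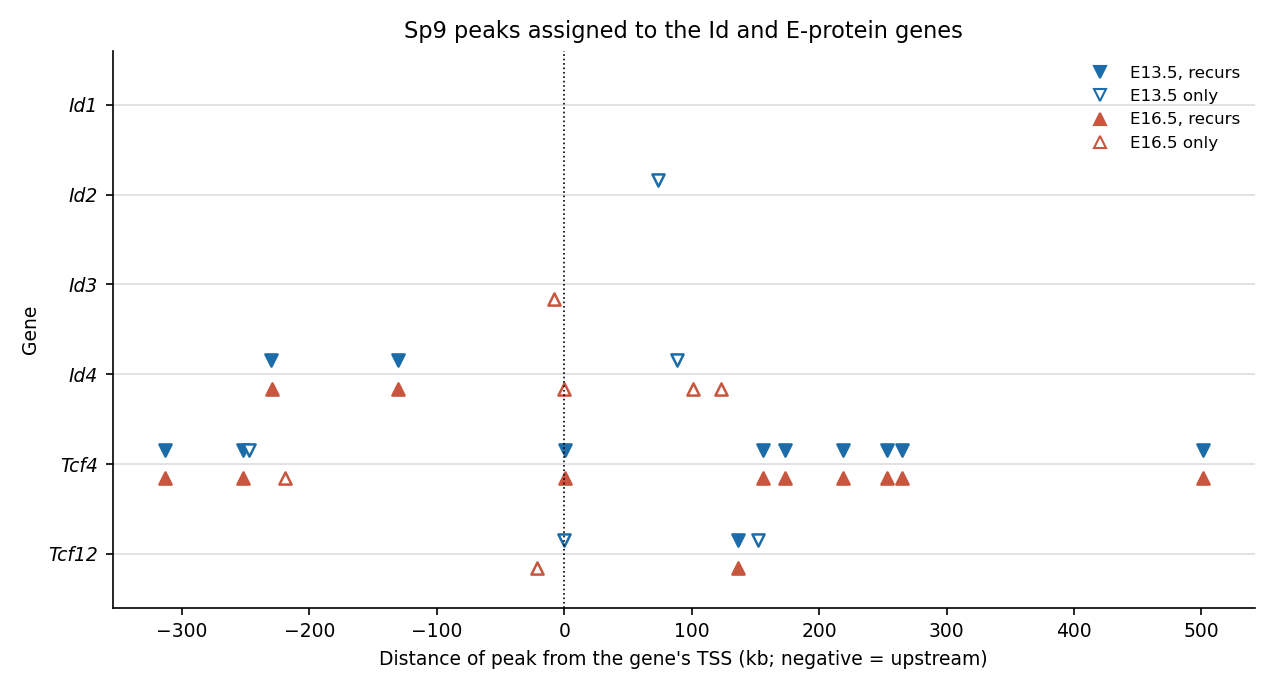
Each triangle is a Sp9 peak at its distance in kb from the TSS of the gene named on the left, pointing down for E13.5 and up for E16.5, and filled where the other list places a peak within 200 bp for that gene. Tcf4 shows 9 filled pairs spread over both sides of its TSS, Id1 has no peak, and the peaks of Id4 and Tcf12 at the dotted TSS line are open because each is in 1 list only.

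Distances can be compared between the lists because they were measured from the same points. A peak assigned to 2 flanking genes gives the spacing of their TSSs. That spacing was identical in both lists for all 1722 gene pairs that shared a peak in each, including 5 pairs with one of the 6 genes. A peak is called recurring below when a peak within 200 bp of its place, by distance from the TSS of that gene, stands in the other list.

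Tcf4, the E protein gene with the most peaks, had 9 of its 10 sites in both lists. At its promoter, the peak lay 372 bp downstream of the TSS in the early list and 328 bp downstream in the late list. A cluster of 5 peaks followed at 156195, 173493, 218949, 253131 and 265457 bp downstream in the early list. The same 5 stood at 156212, 173458, 218875, 253090 and 265320 bp in the late list. All 6 of these peaks had Tcf4 as their nearest listed TSS at both stages.

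The other Tcf4 peaks lay nearer to a neighbouring gene. Peaks 313589 and 252124 bp upstream in the early list recurred at 313624 and 252120 bp. Each was also assigned to 4930546C10Rik, whose TSS was nearer. A peak 501128 bp downstream recurred at 501174 bp and lay 80192 bp upstream of the TSS of Ccdc68 in the early list. These 3 recurring sites are thus placed between Tcf4 and a neighbour, and the lists do not say which gene, if either, they act on.

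Only 1 Tcf4 peak at each stage had no counterpart. It lay 247770 bp upstream in the early list, and the late peak without a counterpart lay 218949 bp upstream. The latter has by coincidence the same figure as the early peak 218949 bp downstream. Its distance of 175056 bp from 4930546C10Rik places it on the upstream side, with the same TSS spacing of 394005 bp that the other shared peaks give.

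Few genes carried as many Sp9 peaks as Tcf4. Genes with 10 or more peaks numbered 60 of 4826 listed genes (1.24%) in the early list and 40 of 5463 (0.732%) in the late list, while the median listed gene had 1 peak in both lists. In 9 of 10 cases (90%) a Tcf4 peak recurred. Among the genes with 10 or more peaks, the median recurring share was 55.9% in the early list and 72.7% in the late list, and 5 and 7 genes, Tcf4 included, reached 90%. Counted as recurring pairs, 17 of the 6474 genes had 9 or more. Tcf4 also has a wide stretch in which to collect peaks. The TSSs of 4930546C10Rik and Ccdc68 lay 394005 bp upstream and 581320 bp downstream of its own on mm9, and its peaks in the early list spanned 814717 bp. The part that this width has in the number of peaks was not tested.

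**Figure D2:**
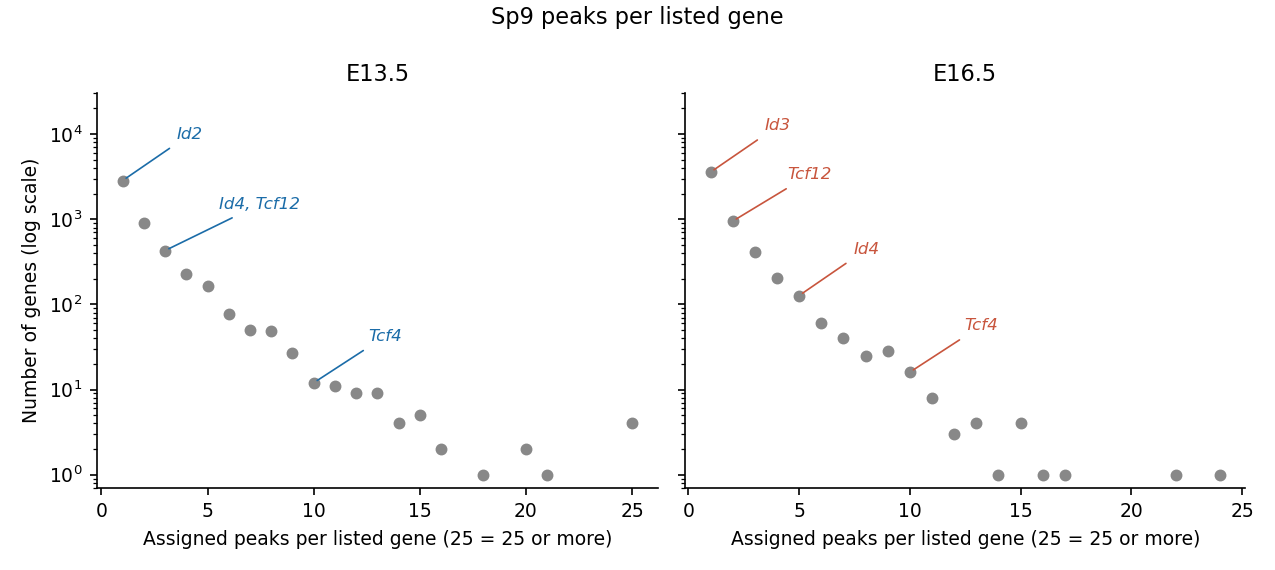
Each point gives the number of listed genes (vertical axis, log scale) that have the number of assigned Sp9 peaks on the horizontal axis, at E13.5 on the left and E16.5 on the right, with genes of 25 or more peaks drawn together. Tcf4 stands at 10 peaks in both lists, against 1 peak for the median listed gene, and Id2 and Id3 stand at 1.

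The genes most like Tcf4 were sought by their peak counts in 5 distance classes in the 2 lists, which makes 10 numbers per gene. By Euclidean distance 4 genes were equally near, at 1.73, and the first 3 by name were AW554918, Atp5g3 and Rnd3. AW554918 had 10 peaks in the early list and 9 in the late list, of which 7 pairs recurred. Atp5g3, a subunit gene of the mitochondrial ATP synthase, and Rnd3, which encodes a small GTP-binding protein, had 8 and 9 peaks each, with 7 and 6 recurring pairs. No other gene had the same 10 counts as Tcf4, namely 1 peak within 1 kb, 8 at 50 to 500 kb and 1 beyond 500 kb in each list.

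Tcf12, the other E protein gene among the 6, had a promoter peak in the early list and none in the late list. That peak lay 191 bp upstream of the TSS, and the nearest Tcf12 peak in the late list was 21445 bp upstream. One site was common to both lists, at 136361 bp downstream in the early list and 136375 bp in the late list. A further early peak 152143 bp downstream had no counterpart. All 5 Tcf12 entries were nearer to Tcf12 than to any other listed TSS. The far downstream ones were also assigned to Cgnl1, a gene of cell junctions, and the one 21445 bp upstream to Gm7866.

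The bases before the annotated Tcf12 starts are shown because the early promoter peak was placed there. RefSeq gives 3 starts for Tcf12 on GRCm38.p6, another build than that of the lists, and which of them served as the TSS is not known. The 250 bases before the first start, on the minus strand at chr9:72111820-72112069, and before the second, on the minus strand at chr9:72111202-72111451, run 5′ to 3′ as follows. Capitals mark the GC box GGGCGG, the site that Sp family zinc fingers are known to bind, on either strand.
Tcf12 first start: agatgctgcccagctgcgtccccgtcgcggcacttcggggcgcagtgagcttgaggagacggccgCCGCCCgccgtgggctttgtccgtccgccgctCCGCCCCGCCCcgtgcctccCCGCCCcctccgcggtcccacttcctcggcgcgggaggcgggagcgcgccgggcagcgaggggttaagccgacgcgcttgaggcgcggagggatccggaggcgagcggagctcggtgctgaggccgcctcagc
Tcf12 second start: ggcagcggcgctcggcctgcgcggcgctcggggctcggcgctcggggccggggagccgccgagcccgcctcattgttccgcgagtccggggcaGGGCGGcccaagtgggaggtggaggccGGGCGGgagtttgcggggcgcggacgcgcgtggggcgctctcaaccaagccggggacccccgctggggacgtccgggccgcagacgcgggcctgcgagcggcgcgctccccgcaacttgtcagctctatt

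The first window held 4 GC boxes, of which a pair overlap by 1 base, and the second held 2. Both were rich in G and C, at 71.7% and 75.7% over the 300 bases from 250 before to 50 after the start, against a median of 52.7% over 32851 RefSeq promoters. The third Tcf12 start, with 36.3% G and C, held none. At least 1 GC box stood in 35.7% of all these promoters and in 92.1% of the 3148 promoters with 70% or more G and C, so a match in so GC-rich a window is common. At least 4, the count at the first start, stood in 5.49% of all promoters and in 34.3% of the GC-rich ones.

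Id4 had the most peaks among the Id genes. Its product is known in neural stem and progenitor cells. Upstream, peaks at 229830 and 130496 bp in the early list recurred at 229737 and 130668 bp. Both lay nearer to 4931429P17Rik, whose TSS was 242819 bp from that of Id4, and the outer one was 12989 bp from it in the early list. Downstream, the lists differed. The early list had a peak at 88835 bp, while the late list had peaks at 100842 and 122920 bp, the nearest of them 12007 bp away from the early site. These 3 downstream peaks were nearer to Id4 than to Zfp169, the next gene.

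At the Id4 promoter a peak 442 bp upstream of the TSS was in the late list only. The closest Id4 peak in the early list was the one 88835 bp downstream. The 250 bases before the RefSeq start of Id4 are shown for comparison with Tcf12, since both promoters had a peak at a single stage. They lie on the plus strand of GRCm38.p6 at chr13:48260866-48261115. The peak's given position falls upstream of this window, and its width is not given.
Id4: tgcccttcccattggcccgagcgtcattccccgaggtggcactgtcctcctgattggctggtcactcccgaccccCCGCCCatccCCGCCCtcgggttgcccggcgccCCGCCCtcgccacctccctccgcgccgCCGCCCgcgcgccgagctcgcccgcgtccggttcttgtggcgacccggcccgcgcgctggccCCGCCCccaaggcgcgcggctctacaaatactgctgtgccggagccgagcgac

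The capitals again mark GC boxes, of which the Id4 window held 5, all read on the opposite strand. Of all promoters 2.71% held 5 or more, and of those with 70% or more G and C, where Id4 with 73.3% belongs, 20.1%. Id2 and Id3, whose promoters had no peak in either list, held 1 and 2 GC boxes. GC boxes were thus in the windows of Id2, Id3 and Id4, with or without a promoter peak. The longer GT box GGGTGTGG and the homeodomain letters TAATTA, each sought on both strands, were in no window of Id2, Id3, Id4 or Tcf12. They were in 3.56% and 5.29% of all promoters. The short CACCC box was found 2 times each at Id2 and Id3 and not at Id4 or Tcf12, against 57.5% of promoters with a match. E-boxes, written CANNTG, were found in the windows of Id2 and of each Tcf12 start but not of Id3 or Id4, and in 72.3% of all promoters. A match says only that the letters are present. The Id1 and Tcf4 promoters were not analysed here.

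Id2 and Id3 each had 1 peak. Id2, an Id gene also active in olfactory bulb interneurons, had an early peak 73339 bp downstream. That site was nearer to Kidins220, which encodes a scaffold protein of neurotrophin signalling, at 47821 bp. The late list had no peak for Id2. Id3 had a late peak 8186 bp upstream, where the other assigned gene, the ribosomal protein gene Rpl11, was 81918 bp away. The Id3 site was the only Id peak other than that of the Id4 promoter within 50 kb of its gene.

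Near the TSS, the members with a peak differed in part between the lists. How many of all protein-coding genes differed in this way was not counted. Within 50 kb, peaks stood at Tcf4 and Tcf12 in the early list (2 of 6 genes) and at Id3, Id4, Tcf4 and Tcf12 in the late list (4 of 6). The share among the 21900 protein-coding genes was 10.8% in the early list and 15.1% in the late list. Promoter peaks, within 1 kb, stood at Tcf4 and Tcf12 in the early list and at Tcf4 and Id4 in the late list, so 2 of 6 at each stage. The background for promoter peaks was 4.93% in the early list and 9.42% in the late list. The 6 genes were picked with earlier results of these lists known, so their distance from the background is a description and carries no test. In the late list the count of 4 falls to 2 when the window is narrowed to 5 kb before and 1 kb after the TSS, where Id3 and Tcf12 drop out.

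Recurring peaks were mostly those of 1 E protein gene, Tcf4. Of the E protein peaks, 10 of 13 in the early list (76.9%, 95% Wilson interval 49.7 to 91.8) and 10 of 12 in the late list (83.3%, 55.2 to 95.3) recurred. Of the Id peaks, 2 of 4 (50%, 15 to 85) and 2 of 6 (33.3%, 9.68 to 70) did, and the intervals of the families overlap at both stages. All 6 genes together had 12 recurring peaks, 70.6% (46.9 to 86.7) in the early list and 66.7% (43.7 to 83.7) in the late list. The whole lists had 57.9% and 56.2%, both inside those intervals. Tcf4 supplied 9 of the 12. Of the peaks of Tcf12, the other E protein gene, 1 of 3 early and 1 of 2 late ones recurred. The E protein shares thus rest mainly on Tcf4. Among all peaks of the 6 genes without those of Tcf4, 3 of 7 early peaks (42.9%, 15.8 to 75) and 3 of 8 late peaks (37.5%, 13.7 to 69.4) recurred. The intervals cover counting error over peaks only, and peaks of 1 gene are not independent.

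Most of the recurring sites were distal, as were most peaks of the 6 genes in each list. At 50 to 500 kb, 10 of 14 peaks of the 6 genes in the early list (71.4%, 45.4 to 88.3) recurred. In the late list 10 of 13 did (76.9%, 49.7 to 91.8). Of all assignments of a peak to a gene at that distance, 57.7% and 69.3% recurred, both inside those intervals. Without Tcf4 the counts at 50 to 500 kb were 3 of 6 (50%, 18.8 to 81.2) and 3 of 5 (60%, 23.1 to 88.2). The shares of all assignments were higher but lay inside these wide intervals. Within 50 kb the only recurring site was that of the Tcf4 promoter. It was 1 of 2 such peaks in the early list and 1 of 4 in the late list. Over all assignments within 1 kb, 63.5% of the early and 33.6% of the late ones recurred, so most late promoter peaks, like that of Id4, had no early counterpart. At 5 to 50 kb, where the late peaks of Id3 and Tcf12 lay, the shares were 59.2% and 60.3%.

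**Figure D3:**
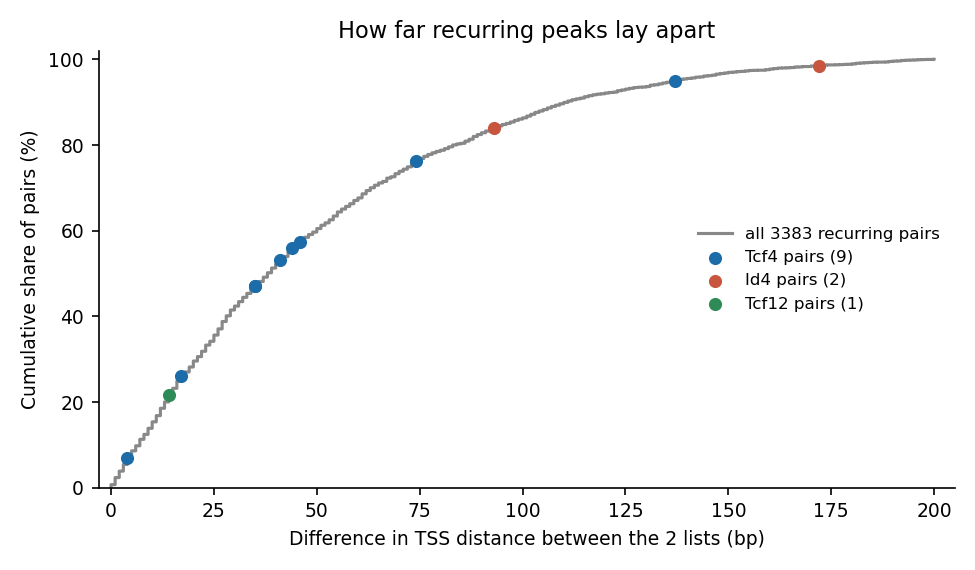
The grey line gives the cumulative share of all 3383 recurring pairs against the difference in TSS distance between the 2 lists in bp, and coloured points mark the pairs of Tcf4, Id4 and Tcf12 on it. The 12 points run from 4 to 172 bp, and the Id4 pairs, at 93 and 172 bp, lie farther right than 8 of the 9 Tcf4 pairs, of which 2 coincide at 35 bp.

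The lists placed the recurring peaks of the 6 genes at slightly different distances. The median difference was 42.5 bp (range 4 to 172, n = 12), compared with 38 bp (range 0 to 200, n = 3383) for all recurring pairs. For Tcf4 the median was 41 bp, and its widest pair, at 265457 and 265320 bp downstream, differed by 137 bp. The inner Id4 pair, at 172 bp, was close to the limit of 200 bp.

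Other genes of the same network were read from 3 lists that were drawn up by function. Among 29 proneural and other bHLH genes, 10 had an assigned peak in the early list and 9 in the late list, 8 of them at both stages. The whole lists named 4826 and 5463 genes, and 6474 in at least 1 list, so most listed genes were in both. Within 50 kb the counts were 6 and 5, and within 1 kb they were 0 and 2. Of all protein-coding genes, 20.7% and 23.6% had an assigned peak. The shares were 10.8% and 15.1% within 50 kb, and 4.93% and 9.42% within 1 kb. One of the 2 bHLH promoter peaks in the late list belonged to Tcf3, at 105 bp upstream. Tcf3 encodes E12 and E47, the E proteins not among the 6 genes, and had no peak in the early list. Of the 3 E protein genes, Tcf4 thus had a promoter peak at both stages, Tcf12 in the early list only and Tcf3 in the late list only.

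Nhlh2, Olig3 and Bhlhe22, bHLH genes of neuronal lineages, each had a peak within 50 kb at both stages. The Bhlhe22 site lay 4282 and 4296 bp downstream, that of Nhlh2 15286 and 15467 bp downstream, and that of Olig3 46104 and 46278 bp upstream.

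The second list held 12 Hes, Hey and related genes, which encode bHLH repressors and include targets of Notch signalling. Of these, 2 had an assigned peak in each list and 1 had a peak within 50 kb. Of all protein-coding genes, 20.7% and 23.6% had an assigned peak, and 10.8% and 15.1% had one within 50 kb. The gene with a peak at both stages was Hes1, at 407710 and 407779 bp upstream. Hey1 had a peak 39521 bp upstream in the early list only. Bhlhe40, which is neither a Hes nor a Hey gene, had one 914 bp upstream in the late list only. These 3 genes were named after their values were seen.

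BMP signalling is known to switch on Id genes through Smad proteins. Of 26 genes of that pathway, 11 had an assigned peak in the early list and 12 in the late list, 9 of them at both. Most genes named in either whole list were likewise in both. Of all protein-coding genes, 20.7% and 23.6% had an assigned peak, and 10.8% and 15.1% had one within 50 kb. Within 50 kb the counts for the 26 genes were 4 and 7, and all 4 of the early genes were among the 7. They were the receptor genes Acvr1 and Acvr2a, the signal carrier Smad1 and the inhibitory Smad7. The Acvr2a promoter had a peak 153 bp upstream in the early list and 98 bp in the late list, and the Smad7 promoter had one 238 and 270 bp upstream. Smad1 had a peak 43791 bp downstream that recurred at 43843 bp. Acvr1 had one 13186 bp upstream that recurred at 13327 bp, and a promoter peak 496 bp upstream in the late list only.

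The 3 BMP pathway genes that joined in the late list were Nog, Acvr2b and Bmpr2. Nog encodes the secreted BMP antagonist noggin and had peaks 238 bp upstream and 3965 bp downstream. The receptor genes Acvr2b and Bmpr2 had peaks 520 and 1100 bp upstream. Bmpr1b, a BMP type I receptor gene, had only distal sites, and all of them recurred. Its 4 peaks lay 255485 bp upstream and 167698, 331486 and 476448 bp downstream in the early list. In the late list they lay 255487 bp upstream and 167709, 331473 and 476492 bp downstream. Tcf3, Nog, Acvr2b, Bmpr2 and Bmpr1b were likewise named after their values were seen.

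**Figure D4:**
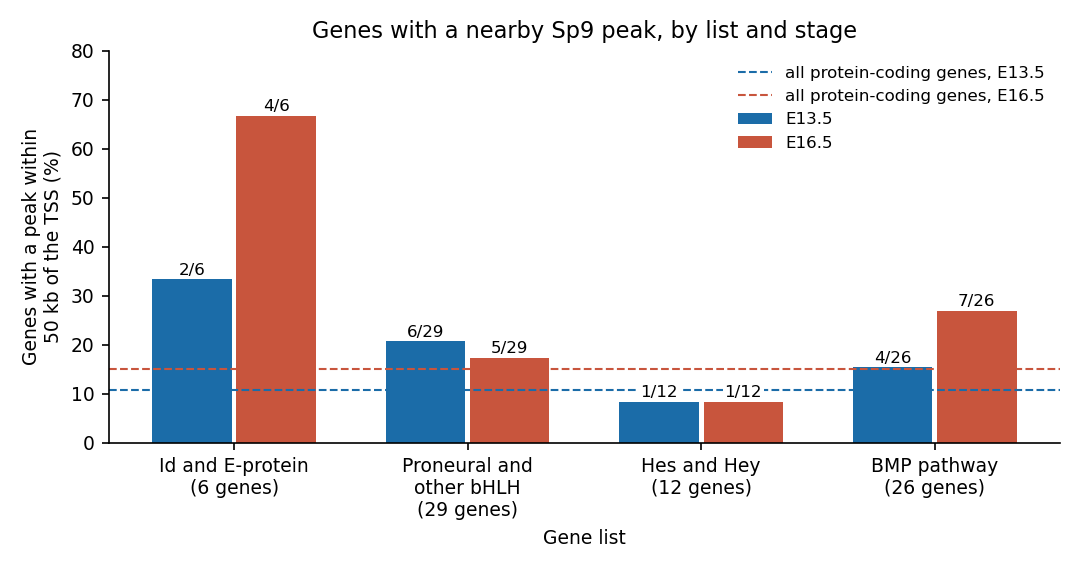
Bars give the percentage of genes in each list with a Sp9 peak within 50 kb of the TSS at E13.5 and E16.5, with the number of genes above each bar, and dashed lines give the same share for all protein-coding genes. The Id and E-protein genes have 2 and 4 of 6, and the other bHLH genes 6 and 5 of 29. The bars labelled Hes and Hey, which include related repressor genes, show 1 of 12 at each stage. The BMP pathway genes have 4 and 7 of 26, beside lines at 10.8% and 15.1%.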

How the data were processed

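Sp9 ChIP-seq peaks of basal ganglia were analysed for 1 library per stage. The deposited tables hold text, per the file headers: a gene's name, its numbered peaks and their signed TSS distances in bp on mm9. Per the same headers, the authors gave a peak to each gene whose regulatory domain (5000 bp upstream to 1000 bp downstream, extended up to 1000000 bp, curated domains included) reached it. CASAVA 1.8.2, bcl2fastq 1.8.4, BWA 0.6.2 and MACS2 2.1.0 are named, without roles, in the submitters' processing notes. No threshold for peaks is stated in the labels or headers.

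Rows were taken by gene name, and a peak split into lettered entries counted once. Peaks of the same gene were paired between lists one to one, closest first, within 200 bp. The background was 21900 protein-coding genes of the RefSeq table (GRCm38.p6, used for names), with matches for 4698 of 4826 names (E13.5) and 5330 of 5463 names (E16.5). Promoter sequences of Id2, Id3, Id4 and Tcf12 came from RefSeq; those of Id1 and Tcf4 were not analysed here. No test was run, since each stage had 1 library. Intervals are Wilson intervals at 95%.

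The members and lists were chosen with earlier results of these data known. The genes named are the 6 members, the genes sharing their peaks, those of each related list with a peak within 50 kb at both stages, and the 3 genes most like the member with the most peaks; any others were named after their values were seen. The values of 1 related gene are not reported here. Pairing was checked on simulated lists whose shared peaks moved by less than the 200 bp limit and whose other peaks moved far beyond it. Shifts near that limit were not simulated. Alternatives were other pairing limits, windows, promoter widths and peak counts. The scripts ran in Python 3.11.15 with numpy 2.4.6, scipy 1.17.1 and matplotlib 3.10.9.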

Additional observations from a re-analysis of the deposited data

How the results depend on the processing

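Leaving out Tcf4, an alternative chosen after seeing the data, took the recurring share from 70.6% to 42.9% at E13.5 and from 66.7% to 37.5% at E16.5, and the assigned peaks from 17 to 7 and from 18 to 8. Counting only peaks whose nearest listed TSS is one of the 6 genes left 10 early and 12 late peaks, of which 70% and 58.3% recurred. Pairing within 100 bp gave 58.8% and 55.6%, as an Id4 and a Tcf4 pair were lost, and 500 or 1000 bp gave the values at 200 bp. The 2 genes with a peak within 50 kb at E13.5 became 4 within 100 kb and at any distance. The 4 at E16.5 became 2 when only 5 kb before and 1 kb after the TSS were read. Promoters within 500 or 2500 bp gave the same counts as within 1 kb. In the promoter windows of Id2, Id3, Id4 and the 3 Tcf12 starts, 14 GC boxes became 4, 4 CACCC boxes became 2 and 5 E-boxes became 2 when only 100 bases before and 50 after the start were read, a window with fewer bases. Each list holds only peaks past a threshold that is not given, and with 1 library per stage neither the reproducibility of a peak nor a change in its strength could be measured.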
